A study of Drosophila melanogaster with 16 samples.

Results

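The axon guidance and neural adhesion genes described here are 10 Drosophila genes taken by name, with no cut on their values. The genes sli and Sema1a encode ligands, and robo1, fra and PlexA encode guidance receptors. Dscam1, Dscam2, Fas2, Fas3 and Nrg encode adhesion molecules of the neuronal surface. All 10 were chosen with earlier results of these data known. They make up 10 of the 14458 genes and 135 of the 31049 annotated transcripts in the deposited tables. Their RNA was followed in larval brains by EC-tagging, in which an enzyme fusion, CD:UPRT, converts fed 5-ethynylcytosine (5EC) into a nucleotide that tags new RNA in the cells that carry the enzyme. The enzyme was driven by insc-Gal4, which is active in neuroblasts and other neural progenitors, or by nSyb-Gal4, which is active in neurons, and every library carried UAS-CD:UPRT. L3 larvae were fed 1 mM 5EC for 12 h, from 72 to 84 h after hatching (pulse), and were then moved to food with 10 mM uridine, on which they stayed for 3, 6 or 12 h (chase). Each of the 8 groups had 2 libraries, 16 in all. Untagged or driver-free control libraries were not analysed here, so the level that purification carries over without a tag is unknown.

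Growing axons are steered by secreted and membrane-bound ligands that attract or repel them through receptors on the growth cone. Slit repels axons through the Robo receptors, the transmembrane semaphorin Sema1a acts with Plexin A, and Frazzled is the fly receptor for Netrins. The Dscam proteins, the fasciclins and Neuroglian bind one another or themselves across cells, and so help axons to bundle, branch and avoid their own sister branches. Most of these genes are transcribed from long loci into several isoforms, and Dscam1 is known for a very large set of alternative exons. Neuroblasts are the dividing stem cells of the larval brain and neurons are their progeny.

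The values are estimated counts that kallisto assigned to each annotated transcript. Levels are given as counts per 1000000 counts outside the mitochondrial genome (CPM), because the mitochondrial share of a library was 86.3 to 92.1% in replicate 1 of neurons, 2.75 to 11.9% in their replicate 2 and 9.66 to 12.8% in neuroblasts. Total counts ran from 11053940 to 31713720 in neuroblasts and from 44317916 to 211109573 in neurons. A further 3 libraries were sparse whatever their total. At least 10 counts were found for 1046 transcripts in replicate 1 and 3176 in replicate 2 of the neuron pulse and for 2244 in replicate 1 of the 12 h neuroblast chase, against 4061 to 22337 in the other 13 libraries. The members at 10 counts or more numbered 2, 7 and 2 of 10 in these 3 libraries and 9 or 10 in every other library. Pairs of values below are replicate 1 and then replicate 2. The authors' methods name 3 biological samples, fed and processed independently, and 2 RNA samples biotinylated for each genotype and time point. Nothing in the labels says which of these the replicates are or whether they came from separate animals. The p-values thus measure the spread between these libraries, which may be technical.

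The drivers were checked against marker genes. The summed level of 8 neuron markers was 378 to 1805 CPM in neuroblast libraries and 2736 to 7769 CPM in neuron libraries, without overlap. That of 6 neuroblast markers was 0.926 to 187 CPM in neuroblast libraries and 1.81 to 1181 CPM in neuron libraries, so these markers were not higher under insc-Gal4. The central nervous system was crudely dissected, and 6 muscle genes summed to 17708 to 106608 CPM in neuroblast libraries and 143 to 23787 CPM in neuron libraries. The sum of 6 fat body genes was 8195 to 62555 CPM in neuroblast libraries, all above the 40.1 to 5026 CPM of neuron libraries, although Fbp1 was at 0 in all 8 neuroblast libraries. Glial markers summed to 183 to 639 and 164 to 2788 CPM. The part of these cells in the members' values was not tested, and fewer cells of a type cannot be told apart from less RNA per cell.

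In the annotation of assembly BDGP6.54, the loci lay on chromosome arms 2L, 2R, 3L and X and on chromosome 4. Sema1a spanned 129.9 kb on 2L (8542147 to 8672041), longer than 99.7% of the genes in the tables, and Fas3 73.3 kb on 2L (18320102 to 18393441). Fas2 spanned 73.2 kb on X (4132887 to 4206093), Nrg 37.8 kb on X (8517373 to 8555170) and Dscam2 30.7 kb on 3L (7159199 to 7189931). On 2R lay Dscam1, with 64.0 kb (7317924 to 7381899), sli, with 52.6 kb (15869495 to 15922118), fra, with 35.1 kb (12529053 to 12564184), and robo1, with 8.45 kb (22692524 to 22700970). PlexA spanned 17.2 kb on chromosome 4 (1009895 to 1027101). Dscam1 had 75 annotated transcripts, Dscam2 15, Nrg 9, Fas2, Fas3 and Sema1a 7 each, sli 6, PlexA 4, fra 3 and robo1 2. All but 1 of the 135, a Fas2 transcript, had an estimated count above 0 in some library, fractions of a count included. Some never reached 1 count, such as Dscam2-RK, which rounded to 0.0 in every library, and Dscam1-RAB, at 0.39 at most.

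The first question was how much tagged RNA of each gene was present at the pulse and how it changed while no new RNA was tagged. Among the ligands, sli, which encodes Slit, stood in neuroblasts at 20.8 and 78.7 CPM at the pulse, 54.1 and 101 CPM at 3 h, 109 and 34.2 CPM at 6 h and 0.103 and 21.5 CPM at 12 h of chase. Neither replicate was the higher one at all times, and the 12 h replicate 1 value was 1 count. In neurons, sli was at 0.402 and 109 CPM at the pulse, 113 and 285 CPM at 3 h, 167 and 83.9 CPM at 6 h and 5.77 and 154 CPM at 12 h of chase. The ranges of the cell types overlapped.

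Sema1a, the semaphorin ligand, was lower after 12 h of chase than at the pulse in both neuroblast replicates, and its levels there were 252 and 93.8 CPM at the pulse, 197 and 87.7 CPM at 3 h, 132 and 18.6 CPM at 6 h and 0.309 and 25 CPM at 12 h of chase. Sema1a was the member with the highest single value in neurons, where it was at 12607 and 96.9 CPM at the pulse, 706 and 347 CPM at 3 h, 293 and 302 CPM at 6 h and 316 and 281 CPM at 12 h of chase. Its pulse value in replicate 1 was 74.0% of all member counts in that library, and the 6 chase values lay between 281 and 706 CPM.

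The receptor gene robo1, through which Slit acts, was at 94.1 and 21.8 CPM at the pulse, 52.8 and 30.8 CPM at 3 h, 35.7 and 8.5 CPM at 6 h and 0.103 and 13.7 CPM at 12 h of chase in neuroblasts. In neurons, robo1 was at 0 and 0.0633 CPM at the pulse, 162 and 374 CPM at 3 h, 0 and 174 CPM at 6 h and 205 and 121 CPM at 12 h of chase. It had 0 counts in the neuron pulse replicate 1 and again in the 6 h replicate 1 library, and 13 counts in the pulse replicate 2 library of 205301755 counts outside the mitochondrial genome. For a library with 0 counts, 3 counts is the upper limit taken, here 0.603 and 0.530 CPM, and this covers counting error only.

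For fra, the Netrin receptor, neuroblast levels were 65.8 and 62.7 CPM at the pulse, 44.7 and 50.4 CPM at 3 h, 116 and 7.73 CPM at 6 h and 0.412 and 11.7 CPM at 12 h of chase. The neuron levels of fra were 0.201 and 0.00974 CPM at the pulse, 401 and 92 CPM at 3 h, 135 and 14.3 CPM at 6 h and 396 and 90.2 CPM at 12 h of chase. At the neuron pulse this was 1 count and 2 counts, and the 6 chase libraries held 766 to 15548 counts.

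PlexA, the receptor for Sema1a, was at 1089 and 721 CPM at the pulse, 1013 and 668 CPM at 3 h, 722 and 232 CPM at 6 h and 102 and 89.1 CPM at 12 h of chase in neuroblasts. It was the only member over 100 counts in the sparse 12 h neuroblast library, with 990 counts. In neurons, PlexA was at 0 and 0.0438 CPM at the pulse, 588 and 275 CPM at 3 h, 27.6 and 439.8 CPM at 6 h and 310.4 and 417 CPM at 12 h of chase, which is 0 and 9 counts at the pulse. Every neuroblast library except those of the 12 h chase and replicate 2 of the 6 h chase was above every neuron library.

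**Figure D1:**
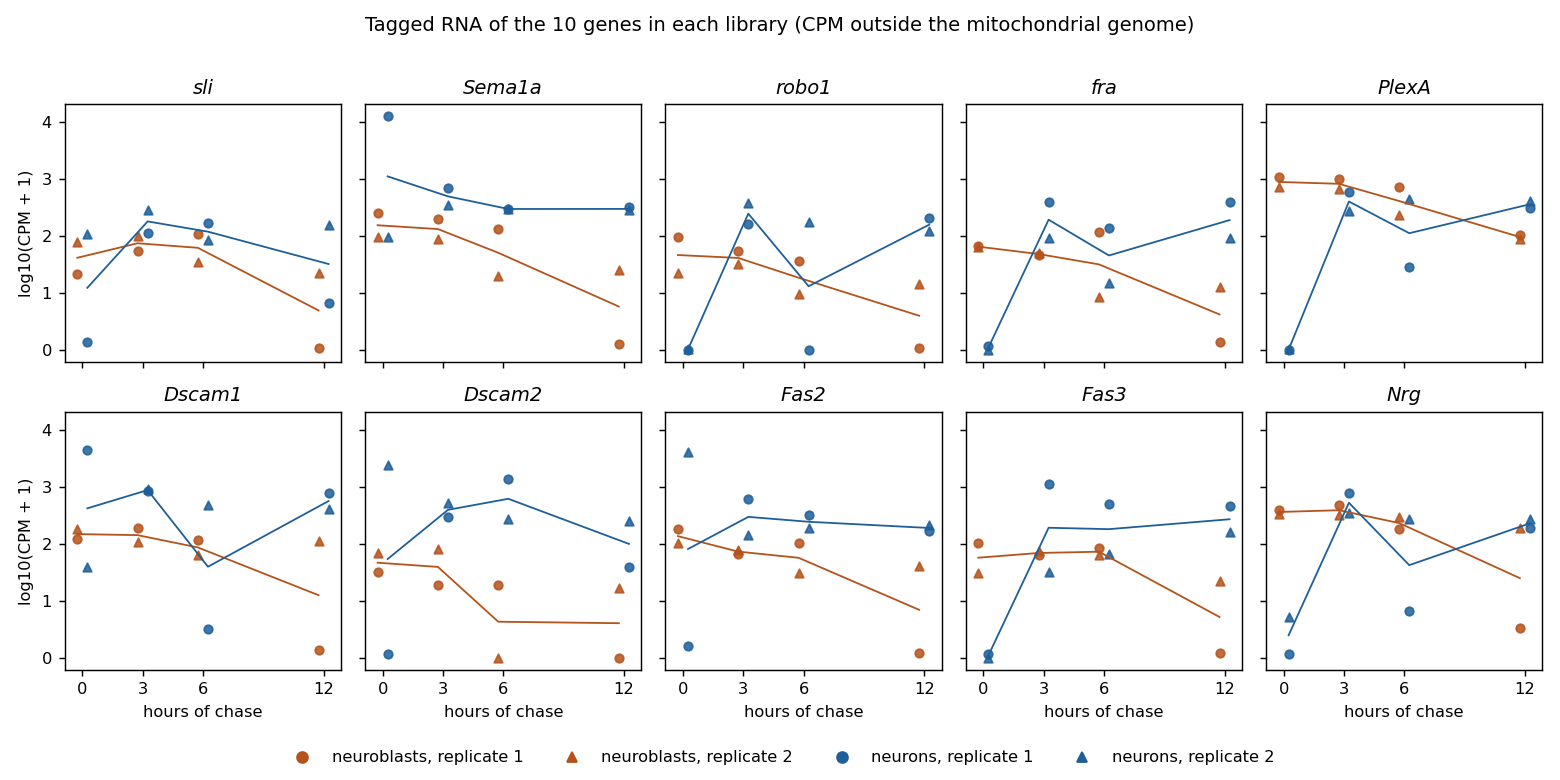
Level of each member in each of the 16 libraries, as log10(CPM + 1) against hours of chase (0 is the pulse), for neuroblasts (orange) and neurons (blue), with circles for replicate 1, triangles for replicate 2 and lines through the mean of the 2 log values. In neurons the pulse points of Fas2 (0.603 and 4118 CPM) and Dscam2 (0.201 and 2457 CPM) lie at opposite ends of the scale, and fra, robo1, PlexA and Fas3 lie near 0 there in both replicates.

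Among the adhesion genes, Dscam1, whose isoforms let sister branches recognise each other, was at 122 and 179 CPM at the pulse, 187 and 107 CPM at 3 h, 114 and 64.2 CPM at 6 h and 0.412 and 112 CPM at 12 h of chase in neuroblasts. In neurons, Dscam1 was at 4427 and 38.7 CPM at the pulse, 851 and 901 CPM at 3 h, 2.3 and 480.2 CPM at 6 h and 792 and 399.6 CPM at 12 h of chase. Of the 6 chase libraries, 5 lay between 399.6 and 901 CPM, and replicate 1 of the 6 h chase held 13 counts.

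Dscam2, a related molecule that keeps neighbouring axons of the visual system apart, was at 31.3 and 67 CPM at the pulse, 18.2 and 80.3 CPM at 3 h, 17.8 and 0 CPM at 6 h and 0 and 15.7 CPM at 12 h of chase in neuroblasts. It was the lowest member there per length, with 0 counts in 2 of the 8 libraries. The neuron levels of Dscam2 were 0.201 and 2457 CPM at the pulse, 298 and 520.3 CPM at 3 h, 1366 and 277 CPM at 6 h and 38.9 and 249.5 CPM at 12 h of chase. The pulse replicates held 1 count and 504461 counts.

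Fas2, the fly relative of the vertebrate NCAM adhesion molecule, was at 179.8 and 102 CPM at the pulse, 66.3 and 78.8 CPM at 3 h, 104 and 30.1 CPM at 6 h and 0.206 and 39.6 CPM at 12 h of chase in neuroblasts. In neurons, Fas2 was at 0.603 and 4118 CPM at the pulse, 619 and 141 CPM at 3 h, 314 and 188 CPM at 6 h and 169.8 and 210.3 CPM at 12 h of chase. The pulse replicates held 3 and 845393 counts, and the second value was 60.3% of all member counts in its library. Outside the pulse, the 6 neuron libraries lay between 141 and 619 CPM.

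Fas3, an adhesion molecule that binds itself, was at 103 and 30.4 CPM at the pulse, 63.6 and 73.4 CPM at 3 h, 82.4 and 62.9 CPM at 6 h and 0.206 and 21.8 CPM at 12 h of chase in neuroblasts. The neuron levels of Fas3 were 0.201 and 0.00974 CPM at the pulse, 1124 and 31.7 CPM at 3 h, 497 and 65 CPM at 6 h and 451 and 160.3 CPM at 12 h of chase, with replicate 1 above replicate 2 at each chase time. At the neuron pulse it had 1 count and 2 counts.

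Nrg, the fly L1-type adhesion molecule, was at 394 and 332 CPM at the pulse, 477 and 316 CPM at 3 h, 184 and 289 CPM at 6 h and 2.37 and 186 CPM at 12 h of chase in neuroblasts. Outside the sparse library its values there ran from 184 to 477 CPM, and it was in the top 2 members per length. In neurons, Nrg was at 0.201 and 4.24 CPM at the pulse, 787 and 350.3 CPM at 3 h, 5.65 and 269 CPM at 6 h and 188 and 276 CPM at 12 h of chase. The members therefore split at the neuron pulse into those with at least 2457 CPM in 1 replicate (Dscam1 and Sema1a in replicate 1, Dscam2 and Fas2 in replicate 2), sli with 109 CPM in replicate 2, and those below 5 CPM in both (robo1, fra, PlexA, Fas3 and Nrg). Of all genes, only 6.37% in replicate 1 and 15.8% in replicate 2 of that pulse had at least 10 counts, so values near 0 were common there.

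To compare genes with each other, counts were divided by transcript length (counts per kilobase of annotated transcript, scaled to sum to 1000000). By the median over 8 libraries, the order of levels in neuroblasts was PlexA (162), Nrg (109.6), Fas3 (41.0), Fas2 (37.9), Dscam1 (27.9), Sema1a (22.9), fra (17.5), sli (11.5), robo1 (8.63) and Dscam2 (5.98). In neurons the order by the same median was Dscam1 (159), Sema1a (100.4), Fas2 (95.1), Dscam2 (87.7), Nrg (77.7), PlexA (72.4), Fas3 (70.0), robo1 (43.2), sli (29.2) and fra (28.5). The ranges of all neighbours in both orders overlapped. Nrg was above Fas3 in 8 of 8 neuroblast libraries and Dscam1 above Sema1a in 7 of 8, whereas Fas2, placed next to Dscam1, was above it in 4 of 8. In neurons the order was less even. Sema1a was above Fas2 in 2 of 8 libraries, Dscam2 above Nrg in 2 and PlexA above Fas3 in 3, so most libraries had these neighbours the other way round, and the remaining neighbours were higher in 5 or 6 of 8.

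A slope of log2 level on hours of chase was fitted to the 8 libraries of each cell type for all genes with edgeR. Its quasi-likelihood test gave a p per gene, which was adjusted over all genes tested by Benjamini-Hochberg, and a gene was called at an adjusted p under 0.05. All 10 members passed the filter on low counts in every gene fit. In neuroblasts 0 of 10 members were called, where 0.607% of the 10042 genes tested were, every one of them with a rising slope. At an unadjusted p under 0.05 the count was 0 of 10 (8.04% of all genes), and the DESeq2 test called 0 of the 5 members to which it gave an adjusted p (40.1% of such genes). All 10 slopes were below 0, as were 69.3% of all genes, and their median was -0.12 log2 per hour against -0.10 for all genes. The count of slopes below 0 was 9 with DESeq2 scaling, where PlexA turned to 0.075, and 7 without the sparse 12 h replicate 1 library, where Dscam1 (0.06), sli (0.04) and Nrg (0.02) turned and the members' median was -0.045 against -0.049 for all genes.

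The steepest neuroblast slope was that of Sema1a, -0.22 ± 0.14 log2 per hour (SE, 8 libraries, edgeR adjusted p = 0.656). PlexA had -0.14 ± 0.084 (adjusted p = 0.649), the smallest adjusted p among the members. Those of fra and robo1 were both -0.15, with SEs of 0.20 and 0.19, and that of Dscam2 -0.13 ± 0.20. Fas2 (-0.12 ± 0.13), Fas3 (-0.11 ± 0.17), sli (-0.084 ± 0.19), Nrg (-0.064 ± 0.097) and Dscam1 (-0.014 ± 0.11) were all within 1 SE of 0. A slope under the threshold does not show that a level was constant, and no member differed beyond the spread between libraries.

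In neurons 0 of 10 members were called, as were 0.0% of the 11800 genes tested. At an unadjusted p under 0.05 the count was 1, Fas2 (10.4% of all genes), and the DESeq2 test called 3 members with falling slopes, Fas2, Dscam2 and Sema1a (12.8% of the genes to which DESeq2 gave an adjusted p). Fas2 had a slope of -0.71 ± 0.36 log2 per hour (SE, 8 libraries, edgeR adjusted p = 0.476), Dscam2 -0.67 ± 0.37 (adjusted p = 0.523) and Sema1a -0.52 ± 0.34 (adjusted p = 0.612). The slopes of sli and Dscam1 were -0.39 ± 0.32 and -0.33 ± 0.31. Nrg (-0.052), robo1 (-0.032), Fas3 (0.088), PlexA (0.11) and fra (0.12) lay near 0, each with an SE of at least 0.38.

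The slopes of 7 of the 10 members were below 0 in neurons, where 33.7% of all genes were, and the members' median was -0.19 log2 per hour against 0.21 for all genes. Fas2, Dscam2 and Sema1a, with the steepest falls, were at 4118, 2457 and 12607 CPM in 1 pulse replicate and at 0.603, 0.201 and 96.9 CPM in the other. Without both sparse neuron pulse libraries, which leaves the 3, 6 and 12 h chase, all 10 slopes were below 0, 0 were called (0.0% of all genes) and their median was -0.16 against 0.0053 for all genes. Fas2 was then at -0.15, Dscam2 at -0.30 and Sema1a at -0.16 log2 per hour, and Fas3 (-0.096), fra (-0.034) and PlexA (-0.090) had turned. With replicate 2 alone the test called 2 members, Fas2 and Dscam2, and 22.6% of all genes, and with replicate 1 alone 5 of 10 slopes were below 0, against 44.0% of all genes.

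**Figure D2:**
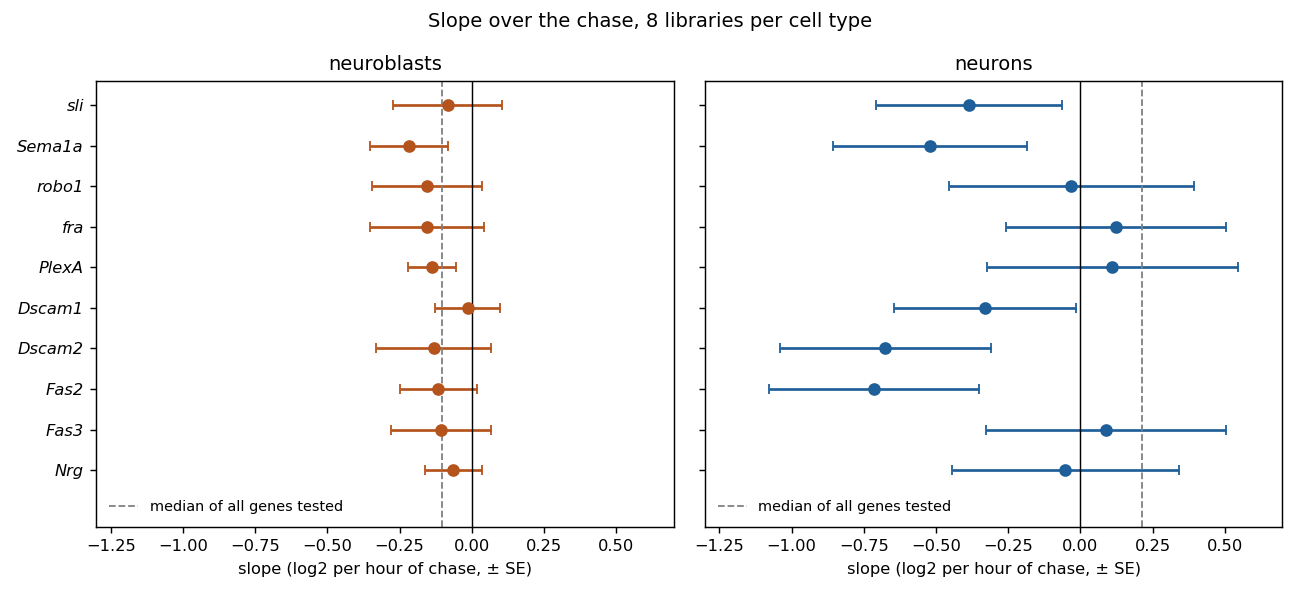
Slope of each member over the chase in log2 per hour, in neuroblasts (left) and neurons (right), as the edgeR estimate with bars of 1 SE over 8 libraries, and the median of all genes tested as a dashed line. All 10 points are below 0 in neuroblasts, from -0.22 to -0.014, and in neurons they run from -0.71 (Fas2) to 0.12 (fra) with wider bars.

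The difference between the slopes was tested directly as an interaction over all 16 libraries. It was called for 0 of 10 members, against 0.571% of the 12787 genes tested, and 0 of 10 had an unadjusted p under 0.05 (14.4% of all genes). The DESeq2 test called 0 of 10 (17.9% of genes), the smallest DESeq2 adjusted p being 0.0519. The largest difference, neuroblasts minus neurons, was that of Fas2, 0.48 ± 0.30 log2 per hour (edgeR adjusted p = 0.478), followed by Dscam2, 0.43 ± 0.30 (adjusted p = 0.536). At the other end was fra with -0.30 ± 0.44. The members' median was 0.072 against -0.47 for all genes, 75.1% of which had a difference below 0. The slopes of the members were thus not shown to differ between the cell types, and the interval of 2 SE around each of the 10 differences held 0. It ran from -0.12 to 1.08 for Fas2 and from -0.17 to 1.04 for Dscam2, the nearest to leaving 0 out.

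Half-lives were fitted as a description, by exponential decay through the pulse mean with a limit of 480 min. In neuroblasts Dscam2 (423 min), Fas2 (420.0 min), Sema1a (406 min) and robo1 (387 min) had half-lives below the limit, Dscam1, Fas3, Nrg, fra and PlexA were at it, and sli had none, although it was at the limit with total counts outside the mitochondrial genome and with replicate 2 alone. In neurons Fas2 (23.9 min), Dscam2 (30.7 min), Sema1a (36.0 min), Dscam1 (74.0 min) and sli (79.6 min) had half-lives, and the other 5, which were near 0 at the pulse, had none. Over all genes, 59.6% had a half-life in neuroblasts (median 480 min) and 14.7% in neurons (median 45.4 min). The short neuron values rest on 1 pulse replicate each. With replicate 1 alone only Sema1a (28.6 min) and Dscam1 (39.7 min) had a half-life in neurons, and with replicate 2 alone Fas2 (20.5 min), Dscam2 (29.3 min), sli (72.4 min), Sema1a (101 min) and Dscam1 (480 min). Half-lives also moved with the scaling of the libraries. With total counts the neuron values were 272 min for Dscam2, 139.6 min for Dscam1, 82.6 min for Fas2 and 51.8 min for Sema1a, with none for sli, and with DESeq2 scaling they were 20.9, 31.9, 18.3, 22.4 and, for sli, 35.6 min. In neuroblasts total counts gave 261 min for Fas2 and 374 min for PlexA, and with DESeq2 scaling PlexA had none.

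The next comparison was the level of tagged RNA by cell type, as the mean of the 4 neuroblast groups minus the mean of the 4 neuron groups on the log2 scale. It was called for 0 of 10 members, where 1.43% of the 12787 genes tested were called. At an unadjusted p under 0.05 the count was 3, Dscam2, Fas2 and Sema1a, all lower in neuroblasts (16.9% of all genes). The DESeq2 test called 5, the same 3 with Dscam1, also lower, and PlexA, higher in neuroblasts (36.7% of the genes to which DESeq2 gave an adjusted p). Dscam2 differed by -5.68 ± 1.96 (SE, 16 libraries, edgeR adjusted p = 0.103), Fas2 by -3.71 ± 1.80 (adjusted p = 0.268), Sema1a by -3.56 ± 1.76 (adjusted p = 0.277) and Dscam1 by -3.23 ± 1.70 (adjusted p = 0.318). PlexA differed by 3.08 ± 1.66 in the other direction (adjusted p = 0.332).

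The other 5 members were sli (-2.46 ± 1.59), robo1 (-0.78 ± 1.55), Fas3 (-0.058 ± 1.71), fra (0.31 ± 1.57) and Nrg (0.52 ± 1.52). The median of the 10 was -1.62 against 0.27 for all genes. At the level of gene sums, 0 members had all 8 libraries of one cell type above all 8 of the other, a pattern found in 0.362% of genes with neuroblasts higher and 0.0488% with neurons higher. Without replicate 1 of the neuron pulse Dscam2 was called, at -6.60 (edgeR adjusted p = 0.00960), as were 1.41% of all genes. Without the 3 sparse libraries 0 members were called, where 1.12% of all genes were. Dscam2 was then at -3.86, Sema1a at -1.96, Fas2 at -1.60 and PlexA at 0.41, fra turned to -1.72, and the members' median was -1.84 against -1.20 for all genes.

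**Figure D3:**
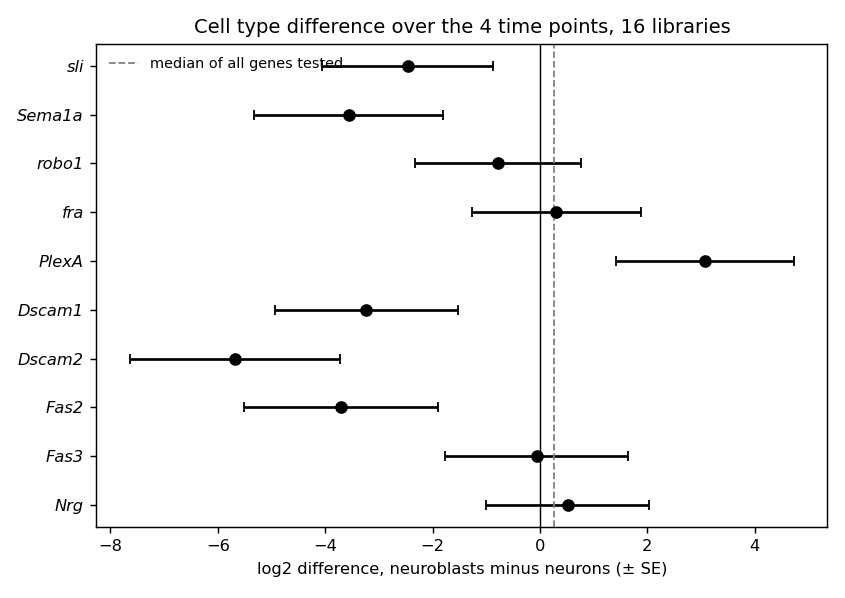
Difference in level between neuroblasts and neurons over the 4 time points in log2 units, as the edgeR estimate with bars of 1 SE over 16 libraries, with the median of all genes tested (0.27) as a dashed line. Dscam2 lies lowest at -5.68 and PlexA highest at 3.08. The bars of robo1, fra, Fas3 and Nrg lie over 0, and that of sli (-2.46 ± 1.59) lies below it.

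The members were set beside a list of 67 other axon guidance and adhesion genes, which holds the netrins, further Robo, semaphorin, plexin and Dscam genes, the ephrin, teneurins, neuroligins, cadherins and laminins, and genes that act below the receptors. In neuroblasts 0 of 67 had a called slope (0.607% of all genes), 54 slopes were below 0 (69.3% of all genes) and the median was -0.11 log2 per hour against -0.10 for all genes. In neurons 0 of 67 were called (0.0%), 36 slopes were below 0 (33.7%) and the median was -0.029 against 0.21. The interaction was called for 0 of 67 (0.571%), with 39 below 0 (75.1%). The cell type difference was called for 1 of 67 (1.43% of all genes), Drl-2, which encodes a receptor of the Derailed family and was lower in neuroblasts by -8.81 ± 2.23 log2 (SE, edgeR adjusted p = 0.0145). At an unadjusted p under 0.05 the counts in these 4 comparisons were 3, 2, 3 and 5 of 67, against 8.04, 10.4, 14.4 and 16.9% of all genes.

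Kallisto divides reads among transcripts, so the members were also followed by isoform. In each library in which a gene had at least 100 counts, the transcript with the most counts was taken as leading. The same transcript led in both replicates in 15 of 58 pairs of libraries of the members (25.9%), against 53.4% for all genes with several transcripts. For members with at least 6 annotated transcripts this was 5 of 40 (12.5%), against 30.9% of such genes. These shares are a description, with no test.

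The same transcript led most often in PlexA and robo1. PlexA-RF led in 13 of 14 libraries and robo1-RA in 11 of 12. For robo1 the leading share was 100% at the median, and the 2 robo1 transcripts have the same coding length (4185 bases) and are 6392 and 6698 bases long. The gene fra, with 3 transcripts, had 3 leaders, and its replicates shared a leader in 0 of 6 groups, as did those of Dscam1. Dscam1 had 9 leading transcripts over 14 libraries, and Dscam1-RCD, the most frequent, led in 5. The leading Dscam1 transcript took 13.2 to 65.0% of the gene's counts, with a median of 30.6%.

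Dscam1-RCD, which at 9145 bases is the longest annotated Dscam1 transcript, had the highest summed count of that gene in both cell types. Its neuroblast levels ran from 0 to 55.5 CPM with a median of 16.7 CPM, and its neuron levels from 0 to 312 CPM with a median of 175 CPM. The number of the 75 Dscam1 transcripts with at least 10 counts was 0 to 16 in neuroblast libraries and 1 to 47 in neuron libraries, the 47 being in replicate 2 of the 12 h chase. At the neuron pulse it was 34 and 32, of which 30 were the same transcripts, although the gene had 4427 and 38.7 CPM there. In replicate 1 of that pulse, transcripts of equal length had equal counts, such as 962 for Dscam1-RAE and Dscam1-RAH (7699 bases each). In replicate 2 both had 115 counts, but Dscam1-RA and Dscam1-RAA, of the same length, had 1329 and 902. The counts of replicate 1 therefore cannot be read as isoforms told apart by their reads, and the 30 shared transcripts rest on them. In the other 7 groups the replicates shared 0 to 4 such transcripts. In the sparse 12 h neuroblast library 4 counts were divided over 74 transcripts. Annotated Dscam1 transcripts share most of their sequence, so counts of single ones are uncertain.

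**Figure D4:**
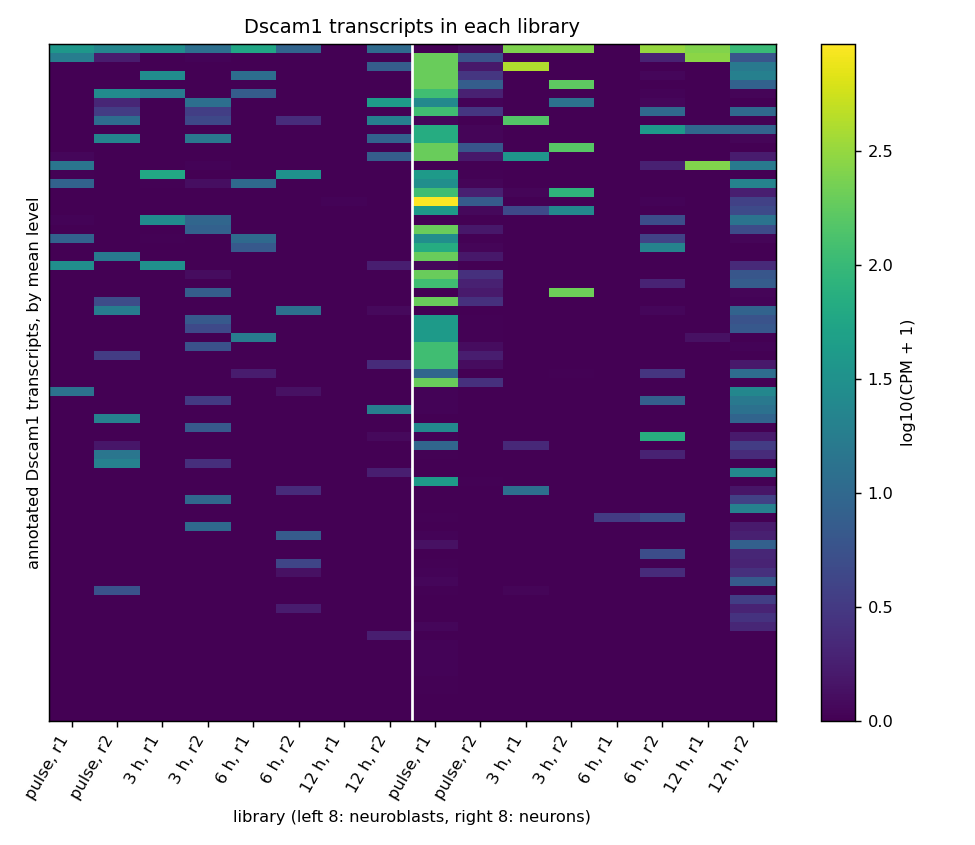
Level of each of the 75 annotated Dscam1 transcripts (rows, ordered by mean level) in each library (columns, 8 of neuroblasts and 8 of neurons, r1 and r2 being replicates 1 and 2), as log10(CPM + 1) in colour. The top row, Dscam1-RCD, is present in 13 of 16 libraries at 10 counts or more, and the 2 neuron pulse columns share 30 rows at that level. In the r1 column of that pulse, transcripts of equal length have equal counts.

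Fas2 was led by 3 transcripts over 14 libraries and agreed between replicates in 3 of 6 groups. Fas2-RC had the highest summed count in neuroblasts, with a median of 41.1 CPM. In neurons it was Fas2-RF, with a median of 59.0 CPM and a highest value of 2941 CPM at the pulse. Of the 622316 neuron counts of Fas2-RF, 603704 were in replicate 2 of the pulse. By library the order was the reverse. Fas2-RF led in 3 of 7 neuroblast libraries and Fas2-RC in 2, while in neurons Fas2-RC led in 4 of 7 and Fas2-RF in 2. Dscam2-RQ had the highest summed count of Dscam2 in neuroblasts (0 to 48.2 CPM), where it led in 3 of 6 libraries, and Dscam2-RG in neurons, where it led in 1 of 7 and Dscam2-RJ in 3 of 7. Dscam2-RG had 412136 counts in replicate 2 of the neuron pulse, 90.0 counts in replicate 2 of the 6 h chase and 0 in the other 6 neuron libraries. Sema1a-RE led most often in both cell types, in 8 of 15 libraries. The summed count was highest for sli-RD in neuroblasts and sli-RE in neurons, for fra-RB and fra-RC, and for Fas3-RD and Fas3-RA, in that order of cell types. By library, sli-RE led most often in both cell types (3 of 7 and 4 of 6). In neuroblasts fra-RB and fra-RC each led in 3 of 7 libraries, and in neurons fra-RA led in 3 of 6 and fra-RC in 2. Fas3-RD led in 1 of 7 neuroblast libraries and Fas3-RA in 2 of 6 neuron libraries. The summed counts thus do not show a change of isoform between the cell types.

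Nrg has 2 known protein forms, a general one and a longer neuron-specific one that differ at the inner end of the protein. Its 9 transcripts fell into coding lengths of 3717 bases (5 transcripts, the short form), 3906 bases (3) and 3927 bases (1, Nrg-RG). In neuroblasts the short form took 83.1 and 13.4% of Nrg counts at the pulse, 68.6 and 76.3% at 3 h, 55.0 and 59.4% at 6 h and 18.1% in replicate 2 at 12 h of chase. In neurons it took 0% in replicate 2 of the pulse, 26.9 and 57.6% at 3 h, 80.3% in replicate 2 at 6 h and 1.56 and 39.4% at 12 h. The ranges overlapped, and libraries with under 100 Nrg counts were left out.

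The fits were repeated on single transcripts. Of the 135 member transcripts, 45 passed the filter in neuroblasts, 81 in neurons and 106 over both cell types. A slope was called for 0 in neuroblasts (0.0616% of all transcripts tested) and for 0 in neurons (0.0331%), with unadjusted p under 0.05 for 2 and 10 (6.83 and 11.7% of all transcripts). The DESeq2 test called 2 and 24 (8.49 and 16.1%). Slopes below 0 numbered 33 of 45 in neuroblasts (69.2% of all transcripts) and 53 of 81 in neurons (33.8%). The cell type difference was called for 0 (0.0% of all transcripts), with unadjusted p under 0.05 for 13 (11.6%), and by DESeq2 for 25 (41.6%). The interaction was called for 2 (3.09% of all transcripts), a share of the 106 below that background, with unadjusted p under 0.05 for 19 (18.9%), and by DESeq2 for 42 (31.9%).

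Both called transcripts were isoforms of Dscam1. Dscam1-RBH had 219 counts in replicate 1 of the neuroblast pulse, 1.78 counts in replicate 2 of the 3 h chase and 0 in the other 6 neuroblast libraries. In neurons it had 140.0 counts in replicate 2 of the 6 h chase, 2061 and 1377 counts after 12 h and at most 0.05 counts elsewhere. Its slope in neuroblasts minus that in neurons was -2.65 ± 0.80 log2 per hour (SE, edgeR adjusted p = 0.0380). Dscam1-RBV had 214 counts in replicate 2 of the neuroblast pulse and 730 counts in replicate 2 of the 12 h neuron chase, and at most 0.03 counts in any other library. Its difference was -2.28 ± 0.62 (adjusted p = 0.0188) and rests on those 2 libraries. Both transcripts passed the filter on low counts only through the libraries that set their slopes, so neither p-value counts as support for a difference. Neither call was kept with no filter on low counts or without the 3 sparse libraries. Leaving out any 1 library or replicate number ended the call of Dscam1-RBH, and that of Dscam1-RBV too except without replicate 1 of the 12 h neuron chase (adjusted p = 0.0273), and over all alternatives the adjusted p reached 1.0 for both.

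One PlexA transcript separated the cell types and was chosen here after its values were seen. PlexA-RA had 1130 and 3394 counts at the neuroblast pulse, 8484 and 1883 at 3 h, 2812 and 724 at 6 h and 12.5 and 793 counts at 12 h of chase, and 0 counts in all 8 neuron libraries. It was the 1 member transcript with every neuroblast library above every neuron library, a pattern of 0.236% of the transcripts in both tables, and 0 member transcripts had the opposite pattern (0.0162%). PlexA itself was detected in neurons, since PlexA-RF held 5286 and 30076 counts at 3 h, 156 and 69140 counts at 6 h and 2528 and 35438 counts at 12 h of chase. The neuron pulse libraries held 0 and 9 PlexA counts in all, so the absence of PlexA-RA there says little. Against a floor of 3 counts in each neuron library (0.226 CPM on average), the mean neuroblast level of PlexA-RA, 139 CPM, was at least 617-fold higher. The lowest neuroblast level was at least 2.14-fold above the highest of the neuron floors. No test is given, since the transcript passed the filter only through the neuroblast libraries, and both bounds take the division of reads between PlexA-RA and PlexA-RF as kallisto made it.

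All 6592 bases of PlexA-RA except 51 are also in PlexA-RF, which has 10243 bases. These 51 bases lengthen exon 6 at chromosome 4, 1015302 to 1015352, and the other 2 PlexA transcripts hold them too. Both of those had counts in neurons. At 3 h of chase PlexA-RC had 2686 and 106 counts there, and PlexA-RB had 16334 counts in replicate 2. Transcripts with the 51 bases were thus counted in neurons. In the 7 neuroblast libraries with PlexA-RF leading, PlexA-RA took 6.35 to 49.2% of PlexA counts and PlexA-RF 50.8 to 82.8%. The 990 PlexA counts of the sparse 12 h neuroblast library were given almost wholly, 97.9%, to PlexA-RB.

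**Figure D5:**
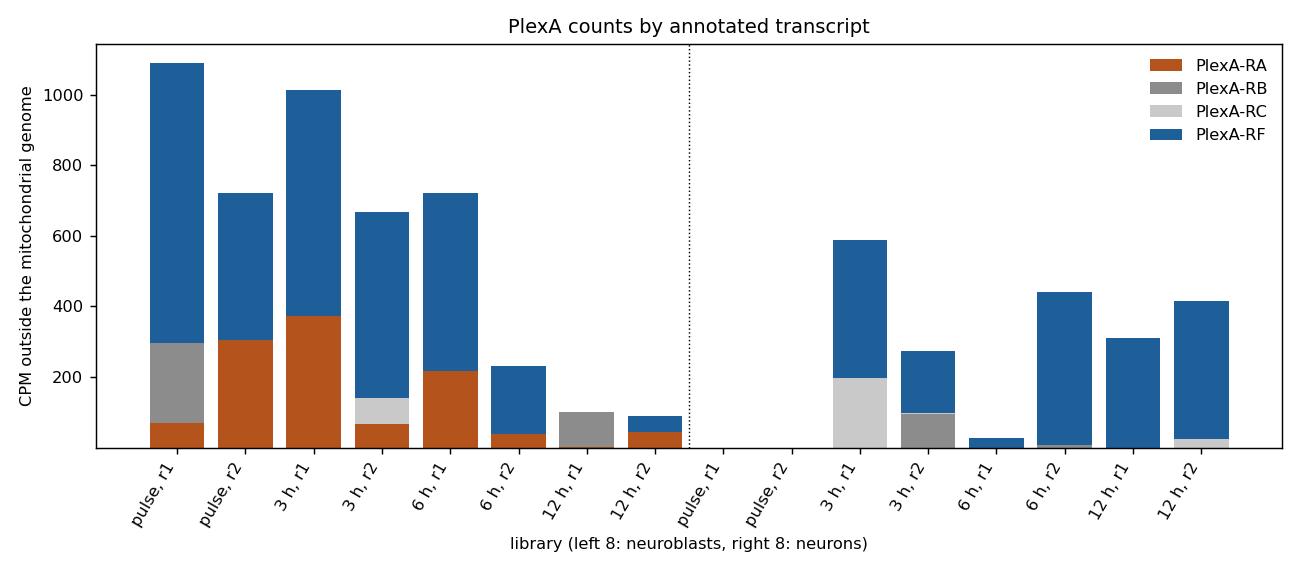
Level of the 4 annotated PlexA transcripts in each library, stacked, in CPM, with the 8 neuroblast libraries on the left and the 8 neuron libraries on the right (r1 and r2 are replicates 1 and 2). PlexA-RA (orange) is present in all 8 neuroblast libraries, from 1.29 to 372 CPM, and in no neuron library, while PlexA-RF (blue), PlexA-RB and PlexA-RC are found in some libraries of both cell types.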

How the data were processed

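RNA tagged in 16 libraries of larval brain was measured by sequencing. The authors trimmed reads with Trimmomatic, mapped them to annotated transcripts (BDGP6) with kallisto and deposited estimated counts per transcript, unnormalized; the strand setting is not given in the sources used here, so reads of genes that overlap a member may not be told apart. Transcripts were joined to genes by Ensembl release 115 (99.3% matched), and counts were rounded and summed per gene. Fits used edgeR 4.0.16 in R 4.3.3 (filterByExpr by group, TMM, quasi-likelihood test, adjusted p under 0.05 over all features, two-sided). Slopes used the 8 libraries of a cell type, and the interaction and cell type difference used all 16 and the 30944 transcripts in both tables. DESeq2 1.42.0 was an alternative. Half-lives were least-squares fits of at least 1 min to TMM-scaled counts. The genes named are the 10 members, their transcript with the highest summed count in each cell type, transcripts past the threshold, and up to 3 genes per direction of the wider list past it. The members and lists were chosen with earlier results of these data known. On simulated counts with a coefficient of variation of 0.4, the share of about 200 changed genes recovered was 94.5% for neuroblast slopes, 98.5% for neuron slopes and 54.5% for the interaction (each 0.25 log2 per hour) and 100% for cell type differences of 2 log2. At a coefficient of variation of 2.5, 0 were recovered in each, and the fitted medians over all genes were 1.80, 2.98, 2.60 and 2.27. The members' medians were 1.18, 2.32, 1.79 and 1.74, between the simulated settings, so recovery at the members' own variation was not simulated. Depth differed as given above, and counts are not molecules, so limits cover counting error only.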

Additional observations from a re-analysis of the deposited data

Results flagged for a closer look

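The slope over the chase differed between cell types for the isoforms Dscam1-RBH, by -2.65 log2 per hour, and Dscam1-RBV, by -2.28 log2 per hour (neuroblasts minus neurons, edgeR adjusted p of 0.0380 and 0.0188), where 3.09% of all transcripts tested differed. Dscam1-RBH had over 100 counts in 1 of 8 neuroblast libraries and in 3 of 8 neuron libraries, and Dscam1-RBV in 1 of 8 and 1 of 8. Each passed the filter on low counts only through these libraries, which also set its slopes. The adjusted p-values therefore do not count as support for a difference. The call was kept in 3 of 24 alternatives for Dscam1-RBH and in 4 of 23 for Dscam1-RBV, and the largest adjusted p among these was 1.0 for each. For the sum over all Dscam1 transcripts the difference was 0.23 ± 0.32 (SE, edgeR adjusted p = 0.832). What part the division of reads among similar isoforms has in this was not tested.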

How the results depend on the processing

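With DESeq2 scaling the median of all genes moved by 0.12 in the interaction and by 0.47 log2 in the cell type difference, and with total counts outside the mitochondrial genome by -0.12 in the neuroblast slope, by -0.20 in the interaction and by 0.54 in the cell type difference. Over all genes, calls of 61, 0, 73 and 183 (neuroblast slope, neuron slope, interaction, cell type difference) became 982, 747, 2289 and 4236 with the DESeq2 test. These were 0.607, 0.0, 0.571 and 1.43% of the genes tested, and 40.1, 12.8, 17.9 and 36.7% of the genes to which DESeq2 gave an adjusted p. Members called with the DESeq2 test numbered 3 in the neuron slope (12.8% of such genes) and 5 in the cell type difference (36.7%). Member transcripts called numbered 2 in the neuroblast slope (8.49% of all transcripts with an adjusted p), 24 in the neuron slope (16.1%), 42 in the interaction (31.9%) and 25 in the cell type difference (41.6%). The 2 transcripts called in the interaction (3.09% of all transcripts) became 6 with DESeq2 scaling (3.24%), 4 with total counts (4.56%), 0 with no filter (0.47%) and 0 without the sparsest libraries (0.0107%), an alternative chosen after seeing the data. The 0 called in the cell type difference became 1 with DESeq2 scaling (0.0868%) and 1 with total counts (0.716%).

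Directions that turned were not called. With DESeq2 scaling they were PlexA in neuroblasts (0.075 log2 per hour), robo1 in neurons (0.027), Nrg in the interaction (0.041) and fra between cell types (-0.075 log2). With total counts they were robo1 (0.11) and Nrg (0.043) in neurons, sli (-0.18) and Dscam2 (-0.025) in the interaction and robo1 between cell types (0.26). With no filter they were Nrg in the interaction (0.063) and fra (-0.23) and Nrg (-0.13) between cell types. With the DESeq2 test they were PlexA in neuroblasts (0.075), robo1 in neurons (0.027) and Nrg in the interaction (0.042). Without the sparsest libraries they were Fas3 (-0.096), fra (-0.034) and PlexA (-0.090) in neurons, Fas3 (0.12), robo1 (0.12), fra (0.0012) and Nrg (0.22) in the interaction and fra between cell types (-1.72).

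Leaving out 1 library, or all libraries of 1 replicate number, gave 0 to 2 members called in the neuron slope (0.0 to 22.6% of all genes), 0 to 1 in the cell type difference (0.0212 to 1.41%) and 0 in the others (at most 2.05%). Among transcripts it gave 0 to 28 in the neuron slope (28 of 117 without replicate 1 of the 12 h neuron chase, where 26.1% of all transcripts were called), 0 to 2 in the interaction (0.0106 to 2.32%) and 0 in the others (at most 0.515%). Without a replicate number the cell type difference is a value with no test, since the model with a mean for each group leaves no residual degrees of freedom, and a smaller model was not run. The neuroblast slope then ran from -0.48 to 0.038 for Fas3, -0.60 to 0.028 for robo1, -0.52 to 0.060 for Dscam1, -0.23 to 0.036 for sli and -0.49 to 0.041 for Nrg. The neuron slope ran from -0.0033 to 0.48 for Fas3, -0.15 to 0.29 for robo1, -0.12 to 0.026 for Nrg and -0.87 to 0.26 for Dscam2. The interaction ran from -0.52 to 0.92 for Fas2, -0.82 to 0.21 for robo1, -0.011 to 0.46 for Sema1a, -0.17 to 0.46 for Dscam1, -0.095 to 0.56 for sli, -0.44 to 0.19 for Nrg and -0.83 to 0.76 for Dscam2. The cell type difference ran from -2.05 to 0.44 for Fas3, -2.70 to 3.62 for robo1, -1.08 to 0.17 for fra and -1.18 to 2.38 for Nrg. The cause of these changes was not tested.

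The labels do not say what libraries of the same number share. In neurons the number also went with the mitochondrial share, 86.3 to 92.1% in replicate 1 and 2.75 to 11.9% in replicate 2. With the replicate block, members called stayed 0 in the slopes of neuroblasts (1.44% of all genes) and neurons (0.0%) and in the interaction (0.0%). They became 3 between cell types (Dscam2, Fas2 and Sema1a, with 10.7% of all genes called), and transcripts called became 0 in the interaction (0.143% of all) and 3 between cell types (1.39%). Under the block robo1 turned in neurons (0.10) and Fas3 between cell types (0.18). Deviations of same-numbered libraries from their group means correlated by 0.050 to 0.21 over 6 pairs of times in neuroblasts (4 above 0.1) and by 0.091 to 0.29 in neurons (5 above 0.1).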
